A study of Mus musculus with 12 samples.

Results

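The 39 genes described here belong to 3 families of mostly secreted signalling ligands, with 19 WNT genes, 6 BMP genes and 14 FGF genes. They were taken by family from a list of symbols, with no threshold on a measured value, and all 39 were found once each among the 21938 protein-coding genes of the GENCODE vM21 annotation. The study profiled H3K27ac and H3K27me3 by native ChIP-seq in cells sorted from the cortex of *Gad67-GFP* heterozygote mice at postnatal day (P)2. GFP+ cells were called CINs (cortical interneurons), and GFP- cells were called non-CINs, and each mark was measured in 2 replicates of each population. Every sample in both groups carried the same *Gad67-GFP* allele, in which GFP marks GABAergic cells. Tissue was pooled from several litters, and the non-CINs are a mixture of glutamatergic neurons, glia and the other GFP- cells of the cortex. In these bulk populations, fewer cells of a type and less of a mark per cell cannot be told apart.

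WNT, BMP and FGF ligands are diffusible signals that bind receptors on the same or neighbouring cells and pattern the early telencephalon from its midline and rostral edge. WNT proteins bind Frizzled receptors, BMPs bind receptor serine/threonine kinases, and FGFs bind receptor tyrosine kinases. H3K27ac marks active promoters and enhancers, whereas H3K27me3 is laid down by Polycomb repressive complex 2 and marks repressed or poised genes, among them many developmental regulators. The protein products of *Fgf12*, *Fgf13* and *Fgf14* are FGF homologous factors, which act inside cells on voltage-gated sodium channels and are not classical secreted ligands. They were kept as members and are named separately where they differ.

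Each list held called peaks only, with no reads outside them. The 4 H3K27ac lists held 46040 to 62505 peaks and the 4 H3K27me3 lists held 36662 to 45081. For every gene, the window ran from 5 kb upstream of the TSS (transcription start site) to the gene end in mm10, and 2 measures were taken from each list. Covered bp is the length of the window under peaks, after peaks 500 bp or less apart were joined. The top percentile is the share of all peaks in the same list whose fold enrichment was at or below that of the strongest peak in the window. In the lists, 7 of 8 GABAergic marker genes had more H3K27ac bp in both CIN lists than in both non-CIN lists, and summed over these genes it came to 61.6 and 52.5 kb in CINs against 0.4 and 0.7 kb in non-CINs. *Lhx6* was the exception, with no H3K27ac in any list. All 8 also had an H3K27me3 peak in all 4 lists, summed to 87.2 and 97.1 kb in CINs against 94.0 and 99.2 kb in non-CINs. A called H3K27me3 peak alone thus did not mark a gene as lacking H3K27ac in CINs. The glutamatergic markers *Neurod2* and *Slc17a7* had no H3K27ac peak in any list, and both had H3K27me3 in all 4 lists. With 2 replicates a side, no exact permutation test across samples could give a two-sided *p* below 0.333, so differences between populations are given as values and counts and none is called significant.

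Most ligand genes carried H3K27me3 in both populations and no H3K27ac in either. An H3K27me3 peak was present in all 4 lists at 36 of 39 members, against 21.1% of all protein-coding genes. H3K27ac was present in all 4 lists at 11 of 39 members, against 56.8% of all genes, and in no list at 23 members, against 33.1%. The same 23 members, 59.0% of the set, had H3K27me3 in all 4 lists together with no H3K27ac in any list, a pattern found at 5.68% of all genes. The opposite pattern, H3K27ac in all 4 lists and H3K27me3 in none, was found at *Fgf1* alone, against 32.7% of all genes. *Fgf1* lost this call with −log10 *q* of 4 or more, where *Wnt7a* and *Fgf13* had the pattern, with the strongest 30000 peaks of each list, where *Wnt7a* had it, and with 50 kb added on each side of the window, where no member did. Both marks were called in all 8 lists at 8 members, 20.5% of the set, against 11.0% of all genes. With 50 kb added on each side of the window, the counts were 2 members with H3K27me3 and no H3K27ac and 25 with both marks. The count with both marks was 2 in the promoter window and 5 with −log10 *q* of 4 or more. The median window was 31625 bp for the members and 22425 bp for all genes, and a longer window can hold more peaks of either mark.

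**Figure D1:**
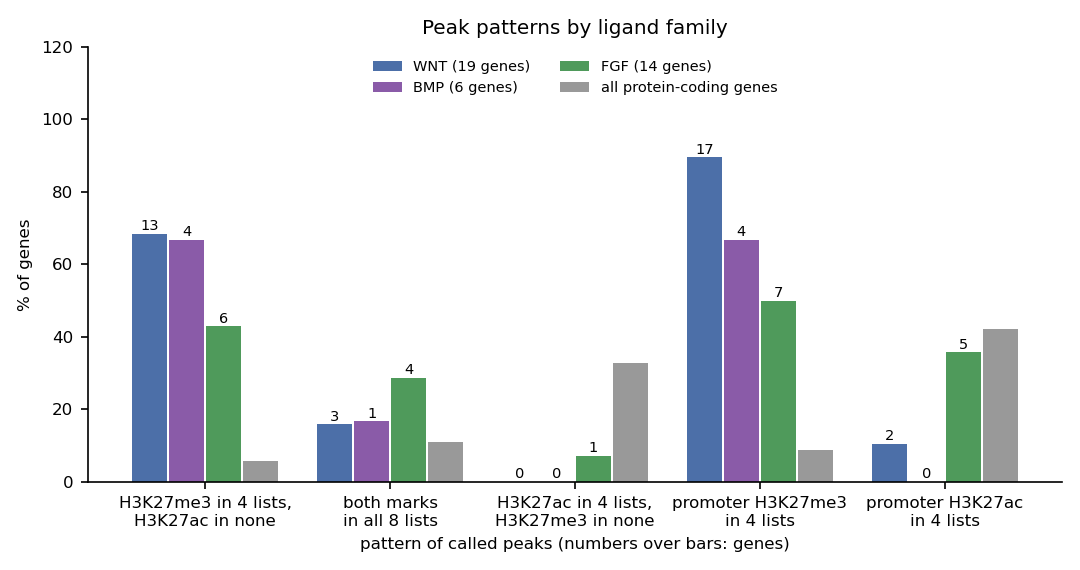
Share of genes (%) with each pattern of called peaks, for the 19 WNT, 6 BMP and 14 FGF genes and for all 21938 protein-coding genes (grey). Numbers over bars count genes, and the bars for H3K27me3 with no H3K27ac reach 68.4% of WNT, 66.7% of BMP and 42.9% of FGF genes against 5.68% of all genes.

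At promoters, taken from 1 kb upstream to 100 bp downstream of the TSS, H3K27me3 was present in all 4 lists at 28 members, 71.8% of the set, against 8.68% of all genes. The WNT family contributed 17 of its 19 genes to this count, BMP 4 of 6 and FGF 7 of 14. Promoter H3K27ac in all 4 lists was found at 7 members, against 42.2% of all genes. These were *Wnt5a*, *Wnt7a*, *Fgf1*, *Fgf2*, *Fgf12*, *Fgf14* and *Fgf20*, with no BMP gene among them. The only member with no H3K27me3 peak in any list was *Fgf1*, a state found at 59.2% of all genes. *Wnt7a* and *Fgf13* had an H3K27me3 peak in 1 list only, CIN replicate 2, of 200 bp and 304 bp.

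H3K27me3 varied widely in strength among the members. The top percentile was 95 or more in all 4 lists at 21 members, 53.8% of the set, against 4.54% of all genes. H3K27me3 covered 50% or more of the window in all 4 lists at 8 members, *Wnt1*, *Wnt6*, *Wnt8b*, *Wnt10a*, *Wnt10b*, *Wnt16*, *Bmp4* and *Fgf8*, against 1.88% of all genes. The median member with a peak had between 6754 and 8575 bp covered in the 4 lists, where the median gene with a peak had between 1493 and 2285 bp.

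**Figure D2:**
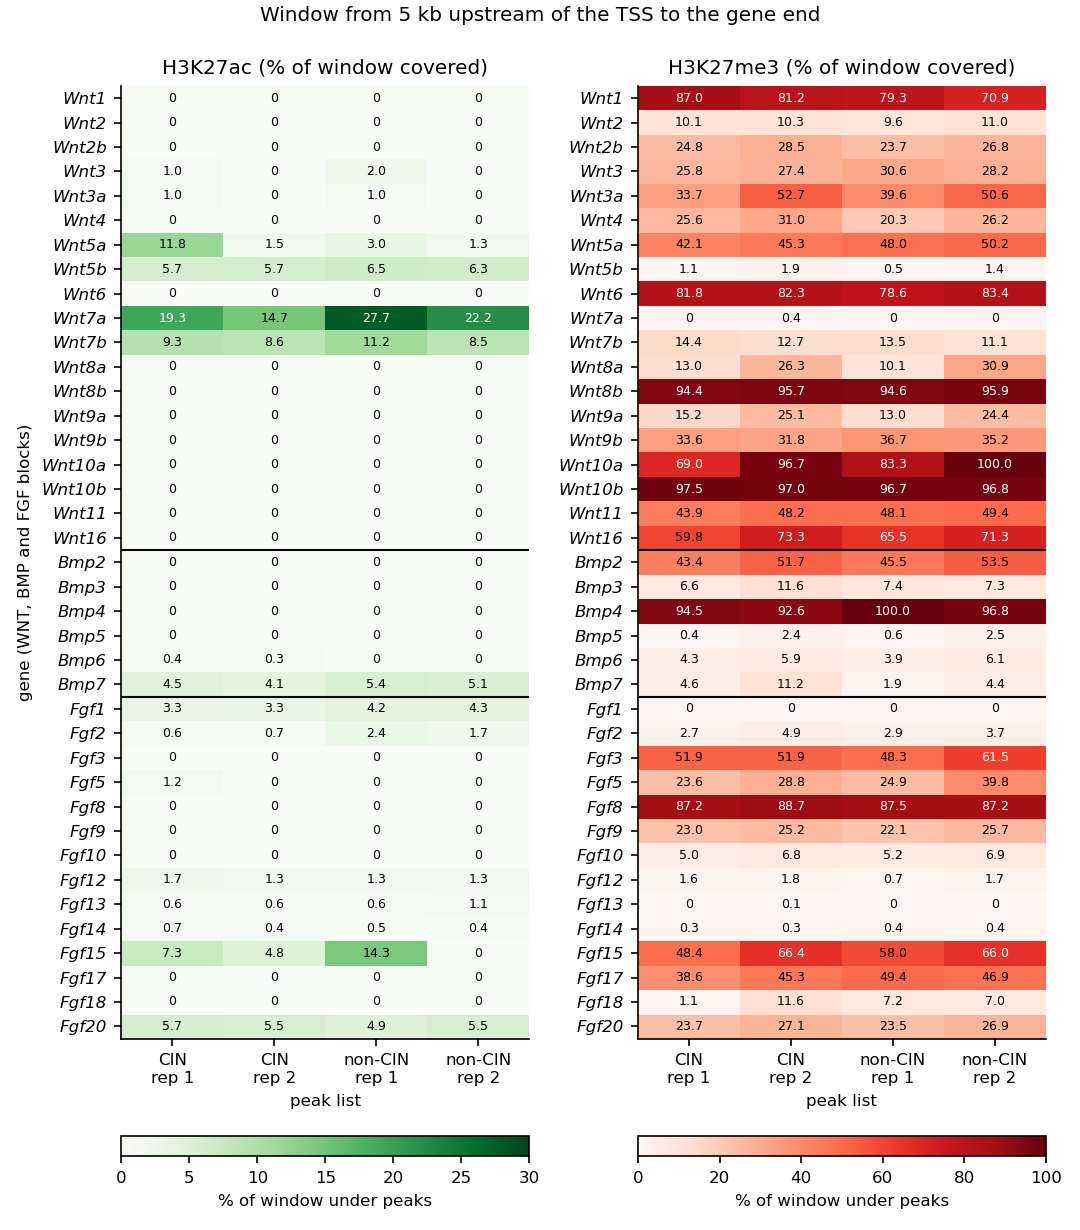
Share (%) of each window under H3K27ac peaks (left, green, scale to 30%) and H3K27me3 peaks (right, red, scale to 100%) in the 8 lists, with lines between the WNT, BMP and FGF genes. H3K27me3 fills most of the window at *Wnt8b*, *Wnt10b*, *Bmp4* and *Fgf8* in every list, and the highest H3K27ac shares are those of *Wnt7a*, from 14.7% to 27.7%.

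Among the WNT genes, *Wnt8b*, a ligand of the medial pallium and cortical hem, had the highest top percentile of H3K27me3 in its weakest list. Its gene lies at chr19:44493472-44514273 on the plus strand, and H3K27me3 covered 24369 and 24696 bp in CINs compared with 24403 and 24738 bp in non-CINs, with top percentiles from 99.4 to 99.8. The 4 values overlapped between populations and together spanned 94.4% to 95.9% of the window. *Wnt3*, which acts in early axis formation, had 12579 and 13351 bp in CINs compared with 14925 and 13774 bp in non-CINs. *Wnt10b*, a canonical WNT ligand, had 12133 and 12064 bp in CINs compared with 12031 and 12035 bp in non-CINs. *Wnt10b* had the larger share of its window covered, from 96.7% to 97.5%. *Wnt3* and *Wnt10b* shared the same lowest percentile of 98.9, and their non-overlap between populations came from differences of opposite direction. H3K27me3 was called in all 4 lists at 18 of the 19 WNT genes, and 13 of them had no H3K27ac peak. The weakest of these 13 was *Wnt8a*, with a lowest top percentile of 74.6.

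Several WNT genes lie beside each other, and their values are not independent. The windows of *Wnt6* and *Wnt10a* were 1193 bp apart, and in each of the 4 H3K27me3 lists 1 joined peak entered both, of 9152 and 19006 bp in CINs compared with 7209 and 33730 bp in non-CINs. The windows of *Wnt10b* and *Wnt1* were 1706 bp apart, those of *Wnt3a* and *Wnt9a* 6175 bp, and those of *Wnt9b* and *Wnt3* 14328 bp, with no peak entering both.

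Acetylation among the WNT genes was found in all 4 lists at *Wnt5a*, *Wnt5b*, *Wnt7a* and *Wnt7b*. *Wnt7a*, a ligand that acts in synapse formation and brain angiogenesis, had the largest H3K27ac coverage of all 39 members in each list. It lies at chr6:91363981-91411363 on the minus strand, and H3K27ac covered 10121 and 7708 bp in CINs compared with 14502 and 11621 bp in non-CINs, with top percentiles of 74.9, 70.0, 88.2 and 86.4. Both non-CIN lists were above both CIN lists in covered bp and in percentile, with means of 8914.5 ± 1706.2 bp (SD, n = 2) in CINs against 13061.5 ± 2037.2 bp (SD, n = 2) in non-CINs, a ratio of 1.47. One peak lay at the promoter in all 4 lists, and the others lay in introns except for 1 exonic peak in CIN replicate 2. The intronic peak about 30 kb from the TSS was 1437 and 1995 bp long in CINs compared with 3908 and 2883 bp in non-CINs, and it was the strongest peak of the gene in both non-CIN lists. The populations overlapped in covered bp with the strongest 30000 peaks of each list, where the difference of the means (non-CINs minus CINs) fell from 4147.0 to 1784.5 bp, and with 50 kb added on each side, where it was 570.5 bp. Within the promoter alone, the difference in mean covered bp (non-CINs minus CINs) had the opposite sign, at -42.5 bp.

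*Wnt7b*, the close paralog of *Wnt7a* and likewise a ligand for brain vessels, had H3K27me3 but no H3K27ac at its promoter. It lies at chr15:85535437-85582473 on the minus strand. H3K27me3 was present at its promoter in all 4 lists and covered over the window 7497 and 6614 bp in CINs compared with 7049 and 5773 bp in non-CINs. H3K27ac covered 4860 and 4475 bp in CINs compared with 5817 and 4413 bp in non-CINs, in introns starting 5 kb or more from the TSS. The H3K27ac peak nearest to the TSS was also the strongest of the gene in each list, and it overlapped an H3K27me3 peak in all 4 lists. The populations overlapped for both marks in covered bp, and the top H3K27ac percentile was higher in non-CINs, at 68.4 and 82.2, than in CINs, at 56.7 and 60.3.

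**Figure D3:**
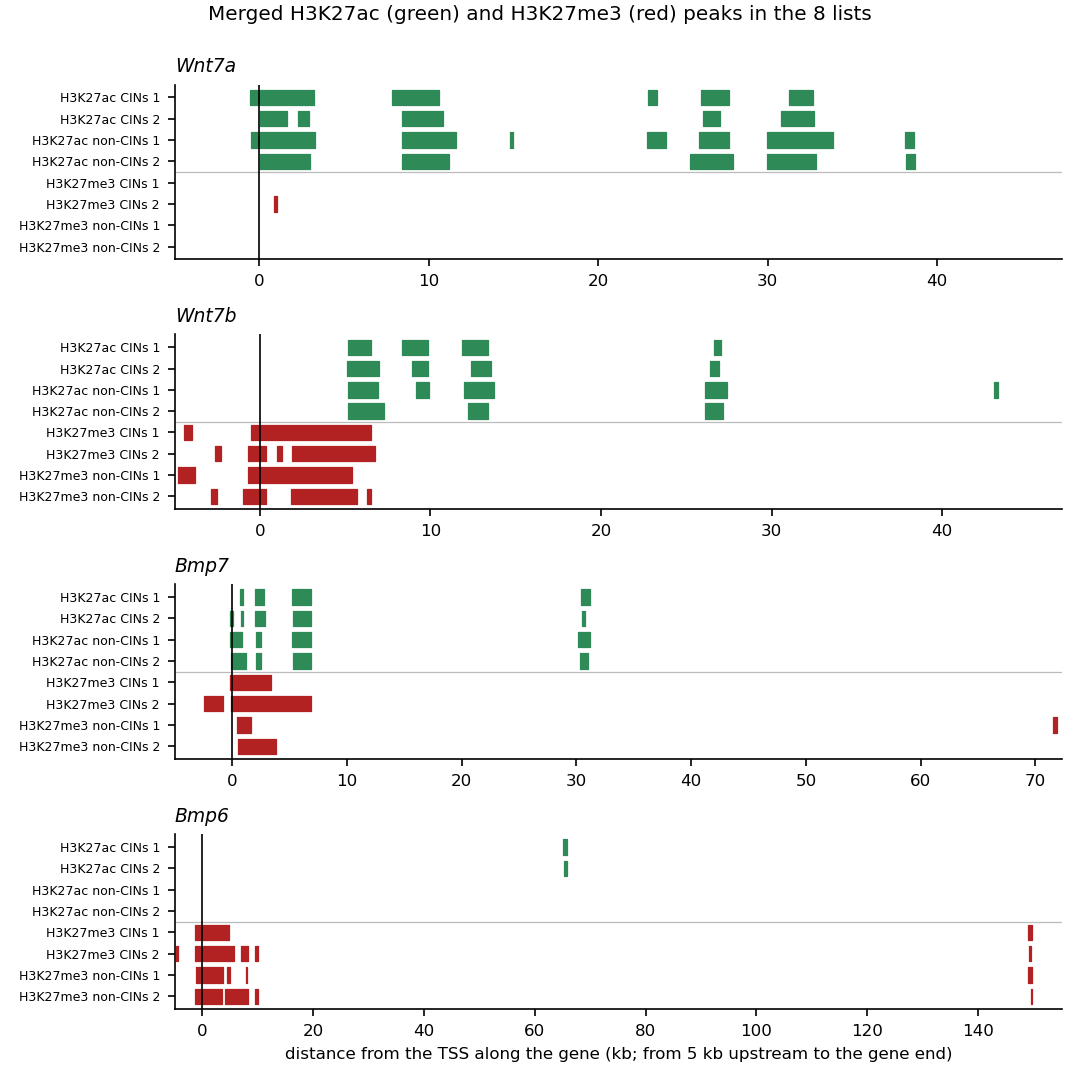
Joined H3K27ac (green, upper 4 rows) and H3K27me3 (red, lower 4 rows) peaks in each list at *Wnt7a*, *Wnt7b*, *Bmp7* and *Bmp6*, by distance from the TSS (kb, vertical line at the TSS), from 5 kb upstream to the gene end. *Wnt7a* has 1 H3K27me3 peak of 200 bp in 1 list, *Wnt7b* has H3K27me3 over the TSS and H3K27ac only further in, where the first H3K27ac peak overlaps H3K27me3 in all 4 lists, and *Bmp6* has 1 H3K27ac peak in each CIN list.

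Acetylation at the other WNT genes was shorter than at *Wnt7a*, and at *Wnt5b* it lay in part at the promoter of another gene. *Wnt5b*, a non-canonical ligand, had 6663 and 6617 bp of H3K27ac in CINs compared with 7535 and 7414 bp in non-CINs, and its lowest top percentile was 80.0. Its longest acetylated peak, of 2819 to 3154 bp, covered the promoter of *Fbxl14*, a gene that overlaps *Wnt5b*, and this peak gave the top percentile in every list but CIN replicate 1. The strongest of the other peaks, all intronic, had percentiles of 95.7 and 87.8 in CINs against 66.1 and 75.7 in non-CINs, and no list had H3K27ac at the *Wnt5b* promoter. H3K27me3 at *Wnt5b* covered 1318 and 2255 bp in CINs compared with 579 and 1696 bp in non-CINs, which overlapped. *Wnt5a*, the ligand of the planar polarity pathway, had H3K27ac of 3271 and 407 bp in CINs compared with 831 and 352 bp in non-CINs beside H3K27me3 of 11661 and 12538 bp in CINs compared with 13305 and 13904 bp in non-CINs. The CIN replicate 1 list stood alone in its acetylated length. *Wnt3* and *Wnt3a* had H3K27ac only in the replicate 1 lists of both populations, of 489 and 976 bp at *Wnt3* and 460 and 470 bp at *Wnt3a*.

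The BMP genes were marked by H3K27me3 in all 4 lists without exception, and 4 of 6 had no H3K27ac. *Bmp4*, the dorsal midline BMP, lies at chr14:46383520-46390669 on the minus strand and had H3K27me3 over 11482 and 11254 bp in CINs compared with 12150 and 11761 bp in non-CINs, with top percentiles of 97.9 to 98.8. Between 92.6% and 100% of its window was covered. *Bmp2* lay between 6822 and 8421 bp in the 4 lists. *Bmp5* carried from 461 to 3274 bp, all in introns and none at the promoter, and was the lowest BMP gene in 3 lists, with *Bmp3* lower in non-CIN replicate 2 at 2569 bp.

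*Bmp6*, a ligand that also signals in iron homeostasis, was the only member with a mark called in both lists of one population and in neither list of the other. It lies at chr13:38345107-38500302 on the plus strand. H3K27ac covered 594 and 452 bp in the CIN lists and 0 bp in both non-CIN lists, in a single intronic peak 65296 bp from the TSS. Its top percentiles of 25.5 and 34.6 put it in the weaker part of both CIN lists, and its −log10 *q* was 3.11 and 4.67 where the lists began at 2.21 and 2.60. Where only peaks with −log10 *q* of 4 or more were kept, CIN replicate 1 lost it and no member was called. The call was also lost with the strongest 30000 peaks of each list and with 50 kb added on each side of the window. Across all genes, H3K27ac in both CIN lists and neither non-CIN list was found at 0.971%, or 1.45% of the genes with any H3K27ac. The *Bmp6* promoter had H3K27me3 in all 4 lists, and over the window H3K27me3 covered 6938 and 9402 bp in CINs compared with 6304 and 9800 bp in non-CINs. These values overlapped between populations, and the lowest top percentile was 95.6. Of the meningeal markers, 1 of 4, *Dcn*, likewise had H3K27ac in both CIN lists alone, while the summed H3K27ac of the 4 genes overlapped, at 1.5 and 0.7 kb in CINs against 0.9 and 0.8 kb in non-CINs.

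The 200 bp at the centre of the *Bmp6* region are shown since this is the only acetylation found in one population alone at the level of a whole gene. The capitals mark a match to the MEIS core CTGTCA or its reverse complement.
Bmp6 intron, chr13:38410529-38410728, plus strand: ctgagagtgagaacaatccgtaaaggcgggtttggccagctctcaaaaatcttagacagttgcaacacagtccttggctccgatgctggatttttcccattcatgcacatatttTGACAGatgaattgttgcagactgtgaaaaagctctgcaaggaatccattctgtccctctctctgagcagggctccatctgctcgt

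*Bmp7*, a ligand of the choroid plexus and meninges, had both marks in all 8 lists. It lies at chr2:172868012-172940321 on the minus strand. H3K27ac covered 3451 and 3155 bp in CINs compared with 4186 and 3973 bp in non-CINs, with top percentiles of 71.9, 74.0, 80.8 and 93.3. H3K27me3 covered 3542 and 8633 bp in CINs compared with 1487 and 3370 bp in non-CINs, with top percentiles of 92.2, 92.6, 37.4 and 82.7. The populations did not overlap for either mark, and the marks differed in opposite directions, with H3K27ac covering more in non-CINs and H3K27me3 more in CINs. The mean H3K27me3 was 6087.5 ± 3599.9 bp (SD, n = 2) in CINs against 2428.5 ± 1331.5 bp (SD, n = 2) in non-CINs, a ratio of 2.51, although CIN replicate 1 lay close to non-CIN replicate 2. Without CIN replicate 2, the difference of the H3K27me3 means (non-CINs minus CINs) went from -3659.0 to -1113.5 bp. The populations overlapped in H3K27me3 with 50 kb added on each side. They overlapped in H3K27ac with the strongest 30000 peaks of each list and within the promoter. An H3K27me3 peak lay over the TSS in both CIN lists and in neither non-CIN list.

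Among the FGF genes, *Fgf8* and *Fgf5* had the highest H3K27me3 percentiles in their weakest list. *Fgf8*, the organizer of the rostral forebrain and the midbrain-hindbrain boundary, lies at chr19:45736798-45742915 on the minus strand and had 9697 and 9862 bp in CINs compared with 9728 and 9699 bp in non-CINs. Its top percentile was 99.4 or 99.5 in every list and its 4 values overlapped between populations. *Fgf5*, a regulator of the hair cycle, had 6565 and 8023 bp in CINs compared with 6938 and 11090 bp in non-CINs, with top percentiles of 98.2 to 98.9. *Fgf9*, a growth factor of the lung and gonad, was below *Fgf5* in its lowest percentile, at 97.3, but covered more, from 10429 to 12102 bp. *Fgf5* also had 1 H3K27ac peak of 322 bp, in CIN replicate 1 only. H3K27me3 was present in all 4 lists at 12 of 14 FGF genes. Without H3K27ac were *Fgf3*, *Fgf8*, *Fgf9*, *Fgf10*, *Fgf17* and *Fgf18*, of which *Fgf18* was the weakest, with 386 to 4046 bp and no promoter peak. *Fgf15*, the endocrine FGF of the gut, had 448 to 1344 bp of H3K27ac at its promoter in 3 lists, the exception being non-CIN replicate 2, together with 4560 to 6259 bp of H3K27me3.

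The 250 bp before the TSS are shown for *Wnt8b*, which had strong H3K27me3 in every list, and for *Bmp7*, where the marks differed between populations. The capitals mark CpG dinucleotides, read on the strand of the gene.
Wnt8b promoter, chr19:44493222-44493471, plus strand: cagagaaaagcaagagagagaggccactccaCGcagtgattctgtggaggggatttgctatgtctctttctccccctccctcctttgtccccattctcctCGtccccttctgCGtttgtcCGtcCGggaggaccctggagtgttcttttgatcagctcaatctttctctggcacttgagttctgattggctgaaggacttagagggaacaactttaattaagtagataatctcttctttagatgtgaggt
Bmp7 promoter, chr2:172940322-172940571, minus strand: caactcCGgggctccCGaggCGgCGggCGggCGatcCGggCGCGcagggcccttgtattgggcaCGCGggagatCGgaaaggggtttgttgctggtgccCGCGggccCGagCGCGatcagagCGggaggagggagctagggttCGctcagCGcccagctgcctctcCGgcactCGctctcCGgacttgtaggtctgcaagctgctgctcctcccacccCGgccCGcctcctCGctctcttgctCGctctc

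The *Wnt8b* promoter held 5 CpGs and the *Bmp7* promoter held 27. The median over the 39 members was 15 CpGs in 250 bp, against 8 for all protein-coding genes. It was 14.5 for the 28 members with promoter H3K27me3 in all 4 lists and 18 for the 7 members with none. Only 1 annotated start per gene was used here. *Fgf14* and *Fgf20*, among the 7, had an H3K27me3 peak at another of their annotated promoters in all 4 lists.

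H3K27ac was present in all 4 lists at 6 FGF genes, *Fgf1*, *Fgf2*, *Fgf20* and the 3 FGF homologous factors. *Fgf1*, a broadly acting FGF on chromosome 18, had H3K27ac of 3153 and 3131 bp in CINs compared with 4050 and 4086 bp in non-CINs and no H3K27me3 in any list. Its top percentiles were 40.6 and 39 in CINs against 61.8 and 70.6 in non-CINs, so that both measures were higher in both non-CIN lists. *Arhgap26* overlaps *Fgf1*, and the lists do not assign a peak to one of them. *Fgf2*, a mitogen of neural progenitors and astrocytes, had 423 and 443 bp in CINs compared with 1611 and 1147 bp in non-CINs. Its means of 433.0 ± 14.1 bp in CINs and 1379.0 ± 328.1 bp in non-CINs (SD, n = 2) gave a ratio of 3.18, the largest among the members with H3K27ac in all 4 lists, but its top percentiles of 20.9, 66, 78.6 and 60.4 overlapped. *Fgf2* also had H3K27me3 at the promoter in all 4 lists, with 1816 and 3268 bp in CINs compared with 1919 and 2483 bp in non-CINs. *Fgf2* is overlapped by *Nudt6*, with the same limit.

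*Fgf20*, an FGF of the ear and dopaminergic midbrain, had H3K27ac of 1935 and 1872 bp in CINs compared with 1664 and 1875 bp in non-CINs, and its lowest percentile of 85.2 was the highest of the FGF genes. That peak covered the annotated *Fgf20* start and the promoter of *Micu3* beside it. With the RefSeq gene span, whose start lies 21378 bp further into the gene, *Fgf20* had no H3K27ac in any list and kept 8024 to 9255 bp of H3K27me3. The 3 FGF homologous factors had H3K27ac in all 4 lists in windows of 510927 to 704221 bp. *Fgf12* had top percentiles of 80.9 to 94.6 and covered 9995 and 7509 bp in CINs compared with 7582 and 7864 bp in non-CINs. *Fgf13* had 2930 and 3236 bp in CINs compared with 3090 and 5438 bp in non-CINs. *Fgf14* had 4693 and 3066 bp in CINs compared with 3803 and 2597 bp in non-CINs. All 3 overlapped between the populations. *Fgf12* also had H3K27me3 in all 4 lists, of 9776 and 10459 bp in CINs compared with 3979 and 9933 bp in non-CINs, which overlapped. *Fgf14* had it in all 4 lists too, from 2218 to 3142 bp. Without the FGF homologous factors 36 members remained, and 8 to 13 of these had H3K27ac in a given list.

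**Figure D4:**
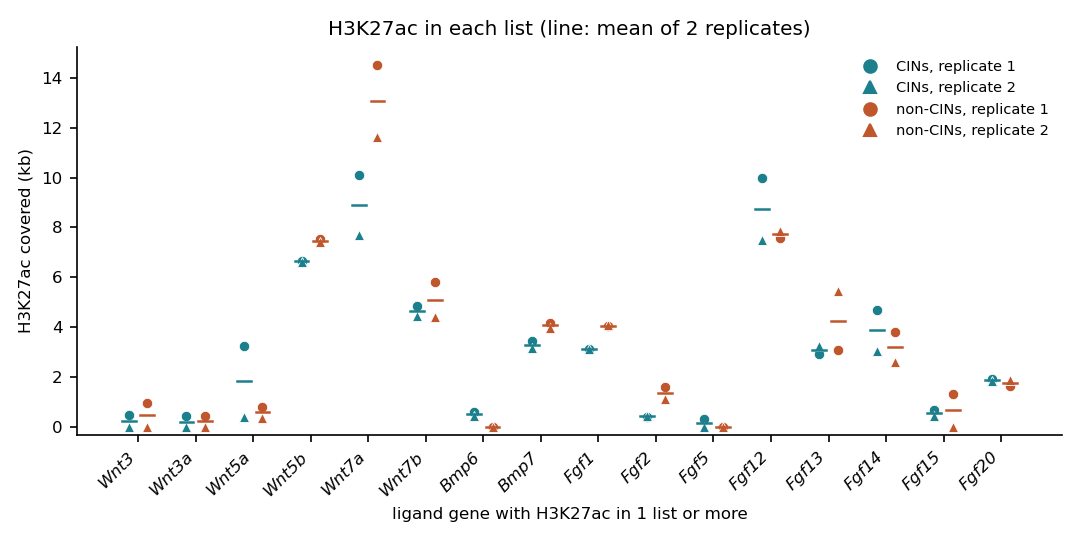
H3K27ac covered (kb) in each of the 4 lists at the 16 members with H3K27ac in 1 list or more, with circles for replicate 1, triangles for replicate 2 and a line at the mean of 2 replicates. *Wnt7a* lies highest, at 7708 to 14502 bp, and the CIN and non-CIN points do not overlap at *Wnt5b*, *Wnt7a*, *Bmp6*, *Bmp7*, *Fgf1* and *Fgf2*.

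Comparing the populations over the whole set, H3K27ac bp in both non-CIN lists was above both CIN lists at 5 members, *Wnt5b*, *Wnt7a*, *Bmp7*, *Fgf1* and *Fgf2*, or 12.8% of 39. The share over all genes was 12.5%, so the members' share was close to the background. Of the members with any H3K27ac this was 5 of 16, where 18.8% of such genes were called. With the strongest 30000 peaks *Wnt7a*, *Bmp7* and *Fgf2* were no longer among them, with −log10 *q* of 4 or more *Fgf2* was not, with 50 kb on each side *Wnt7a* was not, by top percentile in place of covered bp *Wnt5b* and *Fgf2* were not while *Wnt7b* was added, and in the promoter window none of the 5 was. H3K27ac was higher in both CIN lists at *Bmp6* alone, against 11.9% of all genes. This was 1 of the 16 members with any H3K27ac, where 17.8% of such genes were called. The converse state, H3K27ac peaks in non-CINs in both replicates with none in CINs, was found at 0 members, against 0.383% of all genes. Left out in turn, CIN replicate 2, non-CIN replicate 1 and non-CIN replicate 2 raised the count of members higher in CINs from 1 to 6, 5 and 2, and non-CIN replicate 2 raised the count higher in non-CINs from 5 to 9, since fewer lists then had to be ordered. *Fgf5* joined *Bmp6* as present in CINs only when CIN replicate 2 was left out, and *Fgf15* did when non-CIN replicate 1 was left out.

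Markers of some other cell types moved with these values. Of the astrocyte markers, 3 of 4 had more H3K27ac bp in both non-CIN lists, and their summed H3K27ac was 48.7 and 44.5 kb in CINs against 73.0 and 72.3 kb in non-CINs, with none at 0. Of the microglial markers, 1 of 4 did, with 13.1 and 12.8 kb in CINs against 19.6 and 15.9 kb in non-CINs and *Aif1* at 0 in every list. Of the endothelial and mural markers, 2 of 4 did, with 17.4 and 13.1 kb in CINs against 22.0 and 17.7 kb in non-CINs and *Cldn5* at 0 in every list. The oligodendrocyte lineage markers overlapped, at 12.4 and 15 kb in CINs against 13.0 and 14.1 kb in non-CINs, with 1 of 3 genes higher in each population and none at 0. The glutamatergic markers overlapped too, at 8.4 and 3.8 kb in CINs against 5.7 and 7.3 kb in non-CINs, with 1 of 6 genes higher in each. The part of these cells in the *Wnt7a*, *Wnt5b*, *Bmp7*, *Fgf1* and *Fgf2* values was not tested.

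At no member was H3K27me3 found in both lists of one population and neither list of the other, against 0.520% of all genes for CINs and 0.679% for non-CINs. Covered bp was higher in both CIN lists at *Wnt1*, *Wnt10b* and *Bmp7*, or 7.69% of the set against 3.05% of all genes, and 7.48% of the genes with any H3K27me3. It was higher in both non-CIN lists at *Wnt3*, *Wnt5a*, *Wnt9b*, *Bmp4*, *Fgf14* and *Fgf17*, or 15.4% of the set against 4.56% of all genes, and 11.2% of the genes with any H3K27me3. Among members with a peak the counts were 3 and 6 of 38, so both shares stood nearer to those of genes with any H3K27me3 than to those of all genes. By top percentile in place of covered bp, only *Bmp7* and *Bmp4* of these 9 genes were ordered the same way, *Fgf17* was higher in both CIN lists, and the populations overlapped at *Wnt1*, *Wnt3*, *Wnt5a*, *Wnt9b*, *Wnt10b* and *Fgf14*. Other than at *Bmp7*, the ratio of the higher to the lower mean was at most 1.24 at these 9 genes. *Wnt10b* differed by 65.5 bp in about 12 kb. With −log10 *q* of 4 or more *Wnt1*, *Wnt5a*, *Wnt9b* and *Bmp4* were no longer among the 9, and with the strongest 30000 peaks *Wnt5a* and *Wnt9b* were not. With 50 kb on each side *Bmp4*, *Bmp7* and *Fgf17* were not, and without joining peaks *Wnt10b* and *Bmp4* were not. In the promoter window only *Bmp7* of the 9 remained. Leaving out CIN replicate 1 or non-CIN replicate 2 raised the count higher in CINs from 3 to 18 and 15, and leaving out CIN replicate 2 or non-CIN replicate 1 raised the count higher in non-CINs from 6 to 20 and 19. Over the genome, the replicate 2 lists covered more, with 47.5 and 53.5 Mb against 36.8 and 42.2 Mb in replicate 1. Compared within each replicate number, H3K27me3 covered more in CINs at 10 members and in non-CINs at 13.

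**Figure D5:**
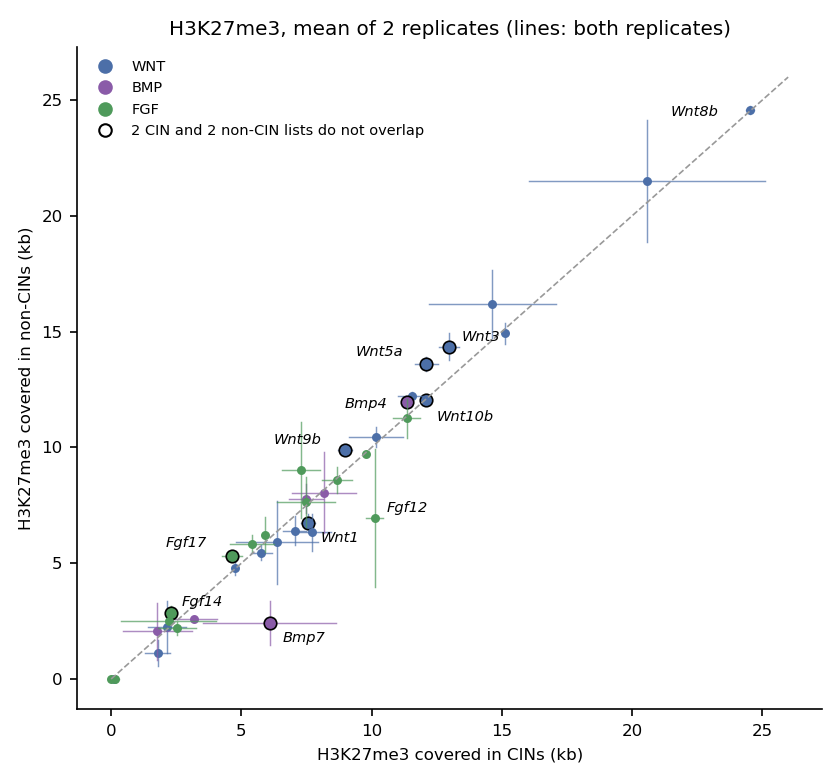
H3K27me3 covered (kb) in CINs and non-CINs for the 39 members, as the mean of 2 replicates with lines joining both replicates, a dashed line of equality and black rims where the lists of the populations do not overlap. Most points lie near the line of equality, with *Bmp7* below it at a mean of 6087.5 bp in CINs compared with 2428.5 bp in non-CINs. *Fgf12* also lies below it, at 10117.5 bp compared with 6956.0 bp, with overlapping lists.

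Regions present in one population only were called within replicate numbers, as stretches shared by the peaks of both replicates that met no peak of the other population in the list of the same number. Of the 4181 CIN-only H3K27ac regions, 6 lay in the windows of 5 members, against 6.80% of all genes holding one. Of the 2775 non-CIN-only H3K27ac regions, 2 lay in the windows of 2 members, against 6.85% of all genes. Of the 704 CIN-only H3K27me3 regions none lay in a member's window, against 1.38% of all genes, and of the 1286 non-CIN-only H3K27me3 regions 1 did, against 2.09%. These H3K27me3 counts depended on the replicate numbers. When shared stretches had to meet no peak in either list of the other population, 4 were CIN-only, at *Wnt5b*, *Bmp3*, *Fgf2* and *Fgf10*. By that rule 2 were non-CIN-only, at *Wnt3a* and *Fgf2*. The balance of H3K27ac regions depended on the peaks kept, numbering 2 for CINs and 6 for non-CINs at −log10 *q* of 4 or more and 1 and 6 with the strongest 30000 peaks of each list. All 8 of the H3K27ac regions from the full lists were intronic, and 5 of them lay in the long FGF homologous factor genes.

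By the lower of the 2 percentiles, *Fgf13* held the first region of each kind, in CINs only just ahead of *Fgf12*. Its CIN-only region at chrX:59179236-59179774 had percentiles of 52.0 and 42.3 in CIN replicates 1 and 2. Its non-CIN-only region at chrX:59556533-59557089, 10982 bp from the TSS, had percentiles of 64.4 and 49.9 in non-CIN replicates 1 and 2 and ranked 103 of 2775 by its lower percentile. The gene as a whole overlapped between populations while holding a region of each. *Fgf12* held 2 CIN-only regions, the stronger at chr16:28393197-28393471 with percentiles of 72.2 and 42.2. The second, and the single regions of *Fgf14* and *Fgf1*, had percentiles from 10.1 to 24.7, and the *Fgf1* region also lay within *Arhgap26*. The *Wnt7a* non-CIN-only region, at chr6:91372743-91373196 in an intron 38167 bp from the TSS, had percentiles of 21.5 and 5.87 and −log10 *q* of 3.26 and 2.97, below the stricter limit of 4. The only one-population H3K27me3 region called within replicate numbers lay upstream of *Fgf2*, at -3836 bp from the TSS (chr3:37344178-37344510). It had percentiles of 26.6 and 59.4 and −log10 *q* of 3.22 and 4.53 in non-CIN replicates 1 and 2. It was lost with −log10 *q* of 4 or more and with the strongest 30000 peaks of each list.

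The central 200 bp of the strongest of these regions and of the *Wnt7a* region are shown because they carry the acetylation found in one population. Capitals mark matches on either strand to the DLX core TAATTA, the SOX core CTTTGT or the MEIS core CTGTCA.
Fgf13 CIN-only, chrX:59179405-59179604, plus strand: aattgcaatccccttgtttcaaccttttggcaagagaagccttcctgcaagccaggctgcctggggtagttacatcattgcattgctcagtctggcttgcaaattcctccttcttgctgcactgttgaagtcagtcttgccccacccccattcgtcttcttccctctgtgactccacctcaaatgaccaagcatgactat
Fgf13 non-CIN-only, chrX:59556711-59556910, plus strand: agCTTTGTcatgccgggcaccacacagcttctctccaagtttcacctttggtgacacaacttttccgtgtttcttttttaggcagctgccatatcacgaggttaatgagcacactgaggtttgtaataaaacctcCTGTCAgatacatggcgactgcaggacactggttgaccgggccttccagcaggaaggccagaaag
Fgf12 CIN-only, chr16:28393234-28393433, plus strand: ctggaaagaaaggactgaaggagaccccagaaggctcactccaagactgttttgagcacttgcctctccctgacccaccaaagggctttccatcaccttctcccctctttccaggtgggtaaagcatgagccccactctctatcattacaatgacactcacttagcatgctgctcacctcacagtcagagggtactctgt
Wnt7a non-CIN-only, chr6:91372870-91373069, plus strand: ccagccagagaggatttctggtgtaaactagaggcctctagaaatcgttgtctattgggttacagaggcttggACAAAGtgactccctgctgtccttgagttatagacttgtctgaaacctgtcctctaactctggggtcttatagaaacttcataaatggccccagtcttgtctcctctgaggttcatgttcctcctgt

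The DLX core was in none of these or the *Bmp6* sequence. Over the genome, it was in 10.9% of the central 200 bp of CIN-only H3K27ac regions and 3.89% of non-CIN-only regions. The SOX core was in 27.4% and 20.6% of them, and the MEIS core in 19.2% and 15.1%. Matches were the MEIS core at *Bmp6*, the SOX core at *Wnt7a*, and both at the non-CIN-only *Fgf13* region, with no match at the CIN-only *Fgf13* and *Fgf12* regions.

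The genes that receive, carry or limit these signals mostly had H3K27ac in both populations. Of 60 receptor, inhibitor and target genes, 49 had H3K27ac in all 4 lists, against 56.8% of all genes, and 34 had H3K27me3 in all 4 lists, against 21.1%. These 60 genes were chosen with earlier results of these data known. H3K27ac bp was higher in both non-CIN lists at 25 of 60, where 12.5% of all genes were. It was higher in both CIN lists at 4 of 60, where 11.9% of all genes were. Among all genes with any H3K27ac these shares were 18.8% and 17.8%, and 5 of the 60 had none. H3K27me3 bp was higher in both CIN lists at 14, against 3.05% of all genes, and in both non-CIN lists at 5, against 4.56%. Among all genes with any H3K27me3 these shares were 7.48% and 11.2%, and 11 of the 60 had none. The 6 BMP receptors all had H3K27ac in all 4 lists, and 3 had more in non-CINs. *Bmpr1b*, a type I BMP receptor, had 12556 and 13034 bp in CINs compared with 21855 and 21287 bp in non-CINs. Of the 6 WNT targets, 4 had more in non-CINs. *Lef1*, a transcription factor of the WNT pathway, had 1349 and 960 bp in CINs compared with 4876 and 2977 bp in non-CINs. Of the 9 FGF feedback and target genes, 6 had more H3K27ac in non-CINs. *Spry4*, a feedback inhibitor of FGF signalling, had H3K27me3 of 2606 and 4894 bp in CINs compared with 0 bp in both non-CIN lists. The summed H3K27ac of the astrocyte, microglial and vascular markers described above was likewise higher in both non-CIN lists. By gene, 3 of 4, 1 of 4 and 2 of 4 of them were. The oligodendrocyte, glutamatergic and meningeal sums overlapped between populations. The part of any of these cells in the H3K27ac at the 60 genes was not tested.

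*Wls*, which carries WNT ligands out of the cell, was among the 4 genes in the other direction. It had H3K27ac of 5418 and 3806 bp in CINs compared with 2115 and 814 bp in non-CINs, with H3K27me3 of 21181 and 24262 bp in CINs compared with 29954 and 36376 bp in non-CINs. *Ror2*, a receptor for *Wnt5a*, had 8377 and 3513 bp of H3K27ac in CINs compared with 2814 and 1995 bp in non-CINs. Among 17 genes for WNT secretion, receptors and co-receptors, 5 had more H3K27ac in both non-CIN lists and 2 in both CIN lists. *Fzd7* and *Fzd9*, Frizzled receptors, had H3K27me3 in both CIN lists and in neither non-CIN list, of 507 and 1302 bp and of 704 and 817 bp. The span that the annotation gives *Fgfr2* reaches over other genes, so its coverage is not described, but the gene is among the 49, the 34 and the 14 counted above.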

How the data were processed

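Native ChIP-seq of H3K27ac and H3K27me3 was analysed from 8 deposited peak lists, 2 replicates of each mark in CINs and non-CINs. The 4 input samples entered only through the authors' peak calling. Per the submitters' processing notes and the study's methods, the authors aligned reads with BWA 0.7.15 to mm10, kept reads of MAPQ 30 or more, and called broad peaks with MACS2 2.2.7 on each replicate against its input, with 200 bp extension and a q cutoff of 0.01. The MACS2 version is that of the notes, and the study's methods name another. Each deposited peak has a display score, which the authors' caller derived and which was not used. Each also has a fold enrichment over input, a ratio, as the authors' caller gave it. The deposited −log10 p and −log10 q values come from the same calls. The lists hold no read counts, so depth is unknown, and a window without a peak means only that none was called.

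Peaks 500 bp or less apart were joined within a list. Covered bp and top fold percentile were computed for 21938 protein-coding genes (GENCODE vM21 basic), over windows opening 5 kb before the TSS and closing at the gene end. Overlaps needed 1 bp. The members were taken by name, without a threshold on these values, but they and the gene lists were chosen with earlier results of these data known. Values in every list were given for members marked in one population, members holding a one-population region, the 2 with the highest lowest percentile per family and mark, and those whose lists did not overlap between populations with group means at least 1.5 times apart. The labels do not say that samples are separate cultures or animals beyond the replicate number. The alternatives were other peak filters, windows, measures and replicate handling, and RefSeq gene spans, the last added after seeing the data. Sequences were read from the RefSeq GRCm38.p6 genome, the mm10 assembly. Python 3.11.15, NumPy 2.4.6, pysam 0.24.0, matplotlib 3.10.9 and bedtools 2.31.1 were used. The overlap code was tested on simulated data, where 1208 of 1208 windows equalled bedtools. Some items are not reported here.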

Additional observations from a re-analysis of the deposited data

How the results depend on the processing

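The pattern of H3K27me3 with no H3K27ac, found at 23 members, stayed within 1.5 times of that count under every alternative except 50 kb added on each side, where it was 2. Of 150 recomputed counts 88 stayed within 1.5 times and 62 did not, and many of these counts are under 5. Keeping peaks with −log10 q of 4 or more gave 0 members with H3K27ac in CINs only, 1 with H3K27me3 in non-CINs only, 0 with H3K27ac higher in CINs, 2 with H3K27ac and no H3K27me3 (*Wnt7a* and *Fgf13*, not *Fgf1*), 5 with both marks, 2 CIN-only and 6 non-CIN-only H3K27ac regions and 0 non-CIN-only H3K27me3 regions. The strongest 30000 peaks gave *Wnt7a* in place of *Fgf1* as the 1 member with H3K27ac and no H3K27me3, 0 members with H3K27ac in CINs only, 5 with H3K27me3 higher in CINs, 1 CIN-only and 6 non-CIN-only H3K27ac regions, and 1 CIN-only and 0 non-CIN-only H3K27me3 regions. The promoter window gave 0 members with H3K27ac and 1 with H3K27me3 in CINs only, 3 and 0 with H3K27ac higher in CINs and in non-CINs, 1 with H3K27me3 higher in non-CINs, 4 with H3K27ac and no H3K27me3, 2 with both marks, 0 H3K27ac regions of either kind and 0 non-CIN-only H3K27me3 regions. With 50 kb on each side there were 0 members with H3K27ac in CINs only, 4 with H3K27ac and 5 with H3K27me3 higher in CINs, 0 with H3K27ac and no H3K27me3, 25 with both marks, 10 CIN-only and 4 non-CIN-only H3K27ac regions, and 2 H3K27me3 regions of each kind. The top percentile in place of covered bp gave 2 members with H3K27ac and 5 with H3K27me3 higher in CINs, and without joining peaks the H3K27me3 regions numbered 1 for CINs and 2 for non-CINs. The causes were not tested.

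Replicates shared only a number in the labels, although the study called differential peaks between CINs and non-CINs within each replicate. The deviations of same-numbered lists correlated at 0.586 for H3K27ac over 14672 genes and 0.915 for H3K27me3 over 8941 genes, a hint from the data only. With the replicate block, H3K27ac was higher in CINs at 3 members and in non-CINs at 6, and H3K27me3 was higher in CINs at 10 (adding *Wnt2b*, *Wnt4*, *Wnt5b*, *Wnt7b*, *Wnt9a*, *Fgf12* and *Fgf20*) and in non-CINs at 13 (adding *Wnt8b*, *Wnt10a*, *Wnt11*, *Bmp2*, *Bmp5*, *Fgf5* and *Fgf10*). With no replicate block the H3K27me3 regions numbered 4 for CINs and 2 for non-CINs.

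Leaving out 1 list in turn gave 1 to 2 members with H3K27ac in CINs only, 0 to 2 with H3K27me3 in CINs only, 1 to 6 with H3K27ac higher in CINs, 6 to 9 higher in non-CINs, 4 to 18 with H3K27me3 higher in CINs, 6 to 20 higher in non-CINs and 1 to 3 with H3K27ac and no H3K27me3. Leaving out 1 replicate number gave 8 to 15 CIN-only and 10 to 11 non-CIN-only H3K27ac regions, and 8 to 17 CIN-only and 16 to 23 non-CIN-only H3K27me3 regions, since a region then needed only 1 list a side.

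Some differences in covered bp (non-CINs minus CINs) changed sign. *Bmp6* H3K27ac was 62.5 bp with 50 kb on each side, and *Wnt7a* H3K27ac was -42.5 bp at the promoter. H3K27me3 was 55.0 bp at *Wnt10b* with peaks not joined and -238.5 bp at the *Wnt5a* promoter, and at *Bmp4* it was -277.5 bp with the stricter q and -973.0 bp with 50 kb on each side. With RefSeq spans *Fgf20* lost its H3K27ac, which changed the count with H3K27me3 alone from 23 to 24 and that with both marks from 8 to 7.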

Other observations

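Regions found in one population only also lay outside the windows, within 50 kb of members. *Wnt7a* had 2 CIN-only H3K27ac regions past its 3′ end, at chr6:91321784-91323236, with percentiles of 83.0 and 68.2 in CIN replicates 1 and 2, and at chr6:91324475-91325566, with percentiles of 80.7 and 62.6. These were stronger than the non-CIN-only region in the *Wnt7a* intron, and lay 88127 and 85797 bp from the TSS, while the H3K27ac within the gene covered more in non-CINs. *Wnt7a* also had a CIN-only H3K27me3 region upstream, at chr6:91437912-91438148, with percentiles of 47.0 and 60.9. *Wnt5a* had a CIN-only H3K27ac region upstream, inside *Erc2*, at chr14:28475722-28476084 with percentiles of 79.2 and 54.0. *Bmp6* had a further CIN-only H3K27ac region upstream at chr13:38325234-38325511 with percentiles of 31.1 and 37.7. *Bmp7* had a non-CIN-only H3K27ac region past its 3′ end at chr2:172833488-172833843 with percentiles of 19.7 and 31.0. Weaker regions lay inside neighbouring genes, with non-CIN-only H3K27ac in *Fam3c* near *Wnt16* (percentiles of 22.0 and 1.54), CIN-only H3K27me3 in *Dmtn* near *Fgf17* (5.48 and 56.3) and non-CIN-only H3K27me3 in *Cyp27a1* near *Wnt6* (12.3 and 6.94). No region was assigned to a ligand by any measurement of contact, so the gene each acts on was not tested.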
